A study of Saccharomyces cerevisiae with 16 samples.

Results

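The samples taken at the lowest feed glucose were set against the samples that followed them in 2 sampling series of the budding yeast Saccharomyces cerevisiae, strain CEN.PK113-7D, one grown with air and one without oxygen. Cells had grown on a mineral salts medium limited by glucose, and from the start of the experiment the glucose in the feed was raised linearly until ammonia became the limiting nutrient. The comparison uses 6 of the 16 arrays, chosen by time and feed glucose and not by any measured value. The aerobic following arrays were taken at 4.1 h (5.51 g/L glucose in the feed) and 6.85 h (8.5 g/L), against 1 aerobic array at 0 h (1 g/L). The anaerobic following arrays were taken at 4.35 h (4.87 g/L) and 10.38 h (10.31 g/L), against 1 anaerobic array at 0 h (1 g/L). All of these cells shared strain, medium and limiting nutrient. The labels name no separate cultures within a series, so the arrays of a series are serial samples. The p-values measure the spread among them and, in the fit over both series, also how far the changes of the 2 series differ. They do not measure the spread between separate cultures. With 1 array at 0 h in each series, that array was assumed to vary like the following ones, and an exact permutation test of 1 gene could not go below p = 0.111 over both series or p = 0.333 in 1 series.

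In glucose-limited culture yeast takes up sugar through high-affinity transporters, respires it when oxygen is present, and keeps part of its glucose-repressed and stress genes switched on. Slowly growing or starving cells raise the targets of the stress activators Msn2 and Msn4, store trehalose and glycogen, and induce genes for the use of acetate, ethanol and fatty acids. Faster growth goes with higher expression of the ribosome and of the factors that build it. These are known properties of the organism, given as background.

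Expression was measured on arrays as log2 values, where 1 log2 unit is a doubling, and every change below is the mean of the following arrays minus the 0 h array, so that a positive change is higher in the following samples. Values of the following arrays are given in order of sampling. Of 5449 genes with a probe set, 5189 reached 4 log2 units on at least 2 of the 6 arrays and were tested with limma, with oxygen as a block, and a gene was called at a Benjamini-Hochberg adjusted p under 0.05. Median values were 11.36 and 11.33 log2 units on the aerobic following arrays, against 11.47 on the aerobic 0 h array. The anaerobic following arrays had medians of 10.83 and 10.78, against 10.97 on the anaerobic 0 h array. The share of probe sets under 4 log2 units was 6.37% and 6.61% on the aerobic following arrays and 5.48% on the aerobic 0 h array, and it was 6.39% and 6.74% on the anaerobic following arrays and 5.42% on the anaerobic 0 h array. Levels are set against each other within a series only, because the medians of the 2 series differed. Across the tested genes the aerobic following arrays correlated with each other at r = 0.991 and with the aerobic 0 h array at 0.849 and 0.853. The anaerobic following arrays correlated at 0.966 with each other and at 0.904 and 0.898 with the anaerobic 0 h array, while the arrays at 0 h correlated with each other at 0.907. These correlations are across genes of one array design, which are not replicates.

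Most of the large changes were decreases, and many of them ran the same way with and without oxygen. In the blocked fit 715 genes (13.8% of those tested) were lower and 433 (8.34%) were higher in the following samples. All 1148 moved the same way in both series, but this was nearly fixed in advance. The fit counts disagreement between the series as error, so genes that moved in opposite directions could hardly be called. Of the 1148, 425 fell and 61 rose by at least 1 log2 unit. Without a test, 395 genes (7.61% of tested) were lower by at least 1 log2 unit in both series with both following arrays beyond the 0 h array, and 36 (0.694%) were higher. The 395 genes were 61.6% of the 641 that met this rule downward in the aerobic series and 61.4% of the 643 that met it in the anaerobic series. The 36 were 13.5% of the 267 that met it upward in the aerobic series and 33% of the 109 in the anaerobic series.

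The number of calls depended on single arrays. Without the aerobic 4.1 h array 88 genes were called, without the aerobic 6.85 h array 111, and without the aerobic 0 h array, which leaves the anaerobic contrast alone, 427. Without the anaerobic 0 h array, 419 genes were called lower. Without the anaerobic 4.35 h array 986 were called. The number of genes lower by 1 log2 unit or more in both series lay between 379 and 418 when any one following array was left out. Scaling set the split between directions. Quantile normalization within each series gave 884 genes higher and 511 lower, quantile normalization of the 6 arrays 908 and 533, and centring each array on its median 719 and 590. In the same order those scalings took the lower share of all calls to 36.6%, 37% and 45.1%, against 62.3% as deposited, and moved the median change of all tested genes from -0.06 to 0.13, 0.13 and 0.05 log2 units. Again in that order, the genes lower by at least 1 log2 unit in both series went from 395 to 272, 280 and 340. Those higher by this rule went from 36 to 153, 154 and 54. Small rises and falls, and the counts of larger ones, are therefore relative to the scaling used.

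**Figure D1:**
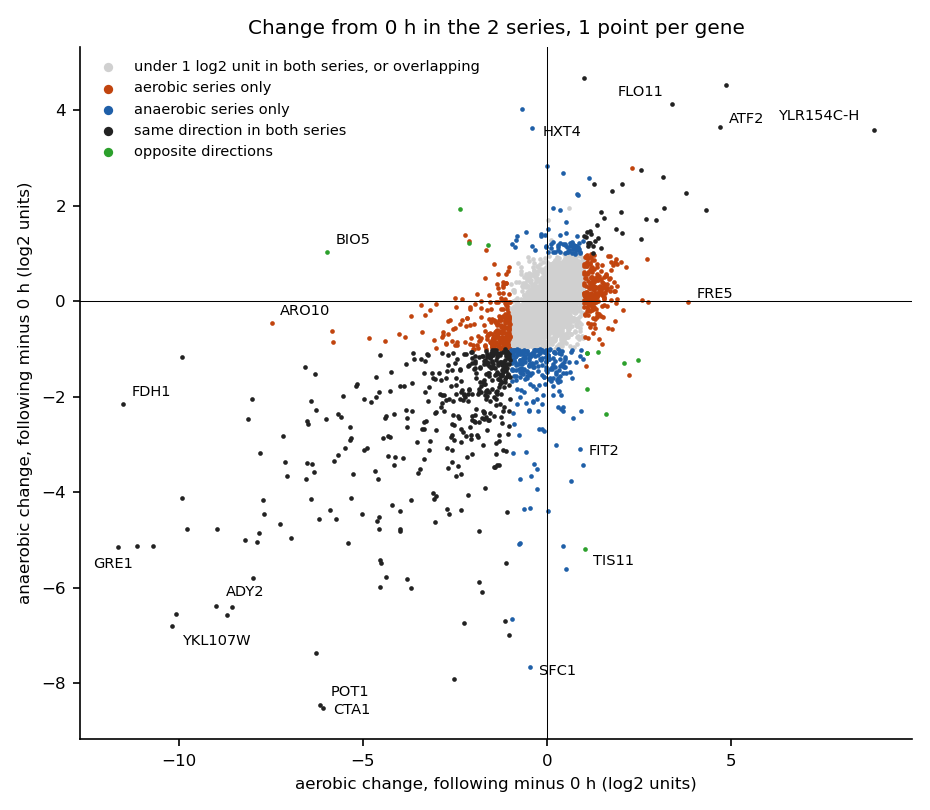
Aerobic change (horizontal) against anaerobic change (vertical) in log2 units for each of the 5189 tested genes, following arrays minus the 0 h array. Black points are the 395 genes lower and 36 higher by at least 1 log2 unit in both series, and coloured points are genes that met the rule in 1 series or in opposite directions.

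Some of the largest decreases ended under 4 log2 units, a floor set here for values near background. YKL107W had 2.23 and 2.05 log2 units in the aerobic following samples, against 12.32 at 0 h, and 2.44 and 2.27 in the anaerobic following samples, against 9.17 at 0 h. All 4 following values lay under the floor of 4 log2 units, so the common change of -8.50 ± 0.80 (SE, limma adjusted p = 0.00863) is replaced by a bound of -6.75. GRE1, a stress-induced hydrophilin, had 4.47 and 3.48 in the aerobic following samples, against 15.61 at 0 h, and 5.01 and 3.61 in the anaerobic following samples, against 9.45 at 0 h. The following values of these genes were low in both series, and none overlapped 0 h.

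PHM7, a membrane protein, had 2.36 and 4.08 in the aerobic following samples, against 13.28 at 0 h, and 6.69 and 4.56 in the anaerobic following samples, against 12.16 at 0 h. Its common change was -8.30 ± 1.05 log2 units (SE, limma adjusted p = 0.0113). TKL2, the minor transketolase, fell by 8.12 ± 1.45 (SE, limma adjusted p = 0.0212), with following values from 2.99 to 6.38 log2 units over both series. SHH3, a mitochondrial membrane protein related to a succinate dehydrogenase subunit, had 2.66 and 2.43 in the aerobic following samples, against 13.26 at 0 h, and 3.93 and 2.20 in the anaerobic following samples, against 8.20 at 0 h. Because all of its following values were under the floor, its fall has a bound of -6.73 log2 units.

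Another 5 genes completed the 10 largest falls. ADY2, an acetate transporter, had 4.65 and 6.97 in the aerobic following samples, against 14.80 at 0 h, and 2.02 and 2.00 in the anaerobic following samples, against 8.39 at 0 h. YNL194C, a plasma membrane protein of the Sur7 family, fell by 7.62 ± 0.58 log2 units (SE, limma adjusted p = 0.00761). SPG4, needed for survival at high temperature in stationary phase, had 5.44 and 5.45 in the aerobic following samples, against 14.00 at 0 h, and 8.22 and 4.80 in the anaerobic following samples, against 12.91 at 0 h. POT1 and CTA1, the peroxisomal thiolase and catalase, each fell by 7.30 log2 units. On both anaerobic following arrays POT1, YNL194C and ADY2 lay under the floor, so their anaerobic falls are bounds of -7.04, -5.76 and -4.39. All 10 genes were called in the blocked fit, with adjusted p between 0.00761 and 0.0212.

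The 10 largest increases were smaller, from 2.26 to 4.70 log2 units. ATF2, an alcohol acetyltransferase, had 11.62 and 10.11 log2 units in the aerobic following samples, against 6.16 at 0 h, and 11.93 and 13.04 in the anaerobic following samples, against 8.83 at 0 h (common change 4.18 ± 0.55, SE, limma adjusted p = 0.0119). FLO11, the flocculin needed for filamentous growth, had 10.99 and 11.92 in the aerobic following samples, against 8.06 at 0 h, and 12.43 and 14.35 in the anaerobic following samples, against 9.26 at 0 h (3.76 ± 0.59, adjusted p = 0.0157). SFG1, a regulator of pseudohyphal growth, had 12.50 and 12.60 in the aerobic following samples, against 9.36 at 0 h, and 11.57 and 11.71 in the anaerobic following samples, against 9.68 at 0 h (2.57 ± 0.29, adjusted p = 0.0099). In each of these genes every following array lay above its own 0 h array.

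EFM6, a methyltransferase of a translation elongation factor, rose by 3.03 ± 0.39 log2 units (SE, limma adjusted p = 0.0118), although its aerobic 0 h value of 3.61 was under the floor and its aerobic rise is a bound of 3.39. SPS4, a sporulation gene, rose by 3.12 ± 0.69 (adjusted p = 0.032). The other 5 of the 10 were YOR072W-B, whose probe set is shared with another gene and whose value is therefore uncertain, YDL241W, YLR342W-A, YBL029W and YJL047C-A, with common changes from 2.26 to 4.70. YLR154C-H, named here after its values were seen, had the largest aerobic rise, 12.92 and 12.45 in the following samples against 3.79 at 0 h. Its anaerobic values of 6.78 and 13.32, against 6.47 at 0 h, disagreed with each other, its probe set is shared, and it was not called (adjusted p = 0.0801).

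**Figure D2:**
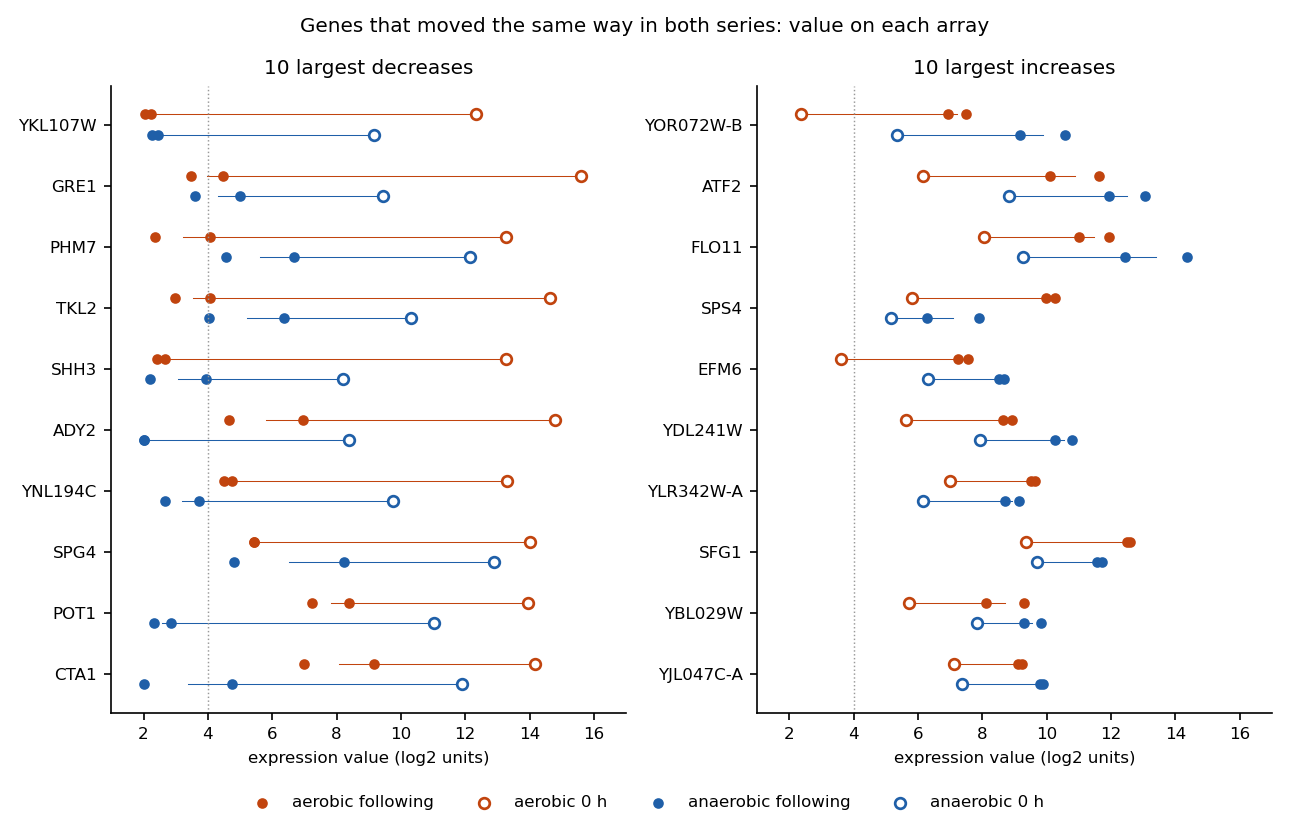
Log2 expression value on each of the 6 arrays for the 10 largest decreases (left) and 10 largest increases (right) among genes called in both series together. Filled points are following arrays and open points the 0 h array, joined by a line from the mean of the following arrays, and the dotted line marks the floor of 4 log2 units. YKL107W and SHH3 have all 4 following values left of the floor.

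Targets of Msn2 and Msn4 fell as a group. Of 44 tested, 36 were called lower and none higher, against 13.8% and 8.34% of all tested genes, and their median change was -3.14 log2 units, against -0.06 over all tested genes. By sign, 43 of 44 were lower in both series, and the exception was MSN4 itself, with a common change of 0.27 (adjusted p = 0.591). FMP45, a membrane protein of the same family as YNL194C, had 4.08 and 2.54 in the aerobic following samples, against 13.08 at 0 h, and 2.90 and 2.00, under the floor, in the anaerobic following samples, against 7.21 at 0 h (anaerobic bound -3.21). Calls for this list numbered 9 without the aerobic 4.1 h array, 10 without the aerobic 6.85 h array and 21 without the aerobic 0 h array, while its median stayed between -3.21 and -2.50 when any one array was left out.

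Heat shock proteins and chaperones moved in parts. Of 32 tested, 15 were called lower and 1 higher, against 13.8% and 8.34% of all tested genes, with a median of -0.67. Lower calls numbered 2 without either aerobic following array and 7 without the aerobic 0 h array. HSP12, a membrane-protecting small heat shock protein, had 11.48 and 12.14 log2 units in the aerobic following samples, against 16.06 at 0 h, and 14.15 and 12.22 in the anaerobic following samples, against 16.03 at 0 h (common change -3.55 ± 0.61, SE, limma adjusted p = 0.0198). HSP26, a chaperone that holds unfolded proteins, had 10.34 and 10.61 in the aerobic following samples, against 15.80 at 0 h, and 10.93 and 10.25 in the anaerobic following samples, against 13.44 at 0 h (-4.09 ± 0.57, adjusted p = 0.0129). The cytosolic Hsp70 SSA2 was the member called higher, at 0.43 (adjusted p = 0.0229), whereas its stress-induced relative SSA3 fell by 3.48 ± 0.77 (adjusted p = 0.0324). HSP60 and HSP10, the mitochondrial chaperonins, changed by 0.04 and 0.09 and were not called.

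Among oxidative defence genes 10 of 32 were called lower and 2 higher, against the same 13.8% and 8.34%. Lower calls numbered 2 without either aerobic following array and 5 without either 0 h array. CTT1, the cytosolic catalase, had 5.39 and 4.95 log2 units in the aerobic following samples, against 13.17 at 0 h, and 6.07 and 5.13 in the anaerobic following samples, against 7.65 at 0 h (-5.03 ± 1.31, SE, limma adjusted p = 0.0468). GPX1, a glutathione peroxidase, fell by 3.21 ± 0.34 (adjusted p = 0.00931). The members called higher were GSH2, which completes glutathione synthesis, at 0.53 (adjusted p = 0.0297), and TRR1, the cytosolic thioredoxin reductase, at 0.48 (adjusted p = 0.0478).

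Trehalose and glycogen genes were lower, with a median of -1.69 log2 units. Of 19 tested, 12 were called lower and 1 higher, against 13.8% and 8.34% of all tested genes. ATH1, the acid trehalase, had 10.26 and 10.24 in the aerobic following samples, against 12.67 at 0 h, and 8.70 and 8.99 in the anaerobic following samples, against 11.24 at 0 h (-2.41 ± 0.14, SE, limma adjusted p = 0.00584). PGM2, the major phosphoglucomutase, fell by 2.19 ± 0.47 (adjusted p = 0.03), while the minor isozyme PGM1 was called higher at 0.91 (adjusted p = 0.0212). GPH1, glycogen phosphorylase, had 11.80 and 12.30 in the aerobic following samples, against 13.27 at 0 h, and 9.84 and 11.74 in the anaerobic following samples, against 13.34 at 0 h, and was not called (adjusted p = 0.0729). In this list 3 members were called lower in each series fitted on its own. Over all tested genes 8.04% were called lower in the aerobic and 5.94% in the anaerobic series. Without the aerobic 4.1 h array 1 member of the list was called over both.

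Autophagy and vacuolar protease genes fell without an exception among the calls. Of 33 tested, 16 were called lower and none higher, against 13.8% and 8.34% of all tested genes. Their median change was -1.08, and 32 were lower by sign in both series. ATG8, the ubiquitin-like protein that coats autophagosomes, had 11.50 and 11.49 log2 units in the aerobic following samples, against 13.13 at 0 h, and 9.10 and 9.94 in the anaerobic following samples, against 11.95 at 0 h (-2.04 ± 0.30, SE, limma adjusted p = 0.0144). ATG1, the kinase that starts autophagy, fell by 2.09 ± 0.25 (adjusted p = 0.0108), and ATG34, a receptor for selective autophagy, by 3.03 ± 0.29 (adjusted p = 0.00863). Without the aerobic 4.1 h array 1 member was called. Of 36 proteasome genes, 3 were called lower and none higher, which was no more frequent than over all tested genes. One of the 3 was RPN4, the activator of proteasome genes, at -1.02 ± 0.20 (adjusted p = 0.0251).

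Gluconeogenesis, the glyoxylate cycle and the use of acetate, ethanol and lactate made up the other large fall. Of 28 genes, 15 were called lower and 1 higher, against 13.8% and 8.34% of all tested genes. Their median change was -2.44 log2 units, and 25 were lower by sign in both series. ADH2, the ethanol-oxidising alcohol dehydrogenase, had 10.78 and 12.24 in the aerobic following samples, against 16.02 at 0 h, and 7.62 and 4.25 in the anaerobic following samples, against 11.91 at 0 h (-5.25 ± 1.01, SE, limma adjusted p = 0.0243). JEN1, the lactate transporter, had 12.67 and 13.30 in the aerobic following samples, against 14.83 at 0 h, and 9.28 and 7.94 in the anaerobic following samples, against 13.42 at 0 h (-3.33 ± 0.74, adjusted p = 0.033). Both genes were below 0 h on every following array.

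The enzymes particular to gluconeogenesis did not pass the test. FBP1, fructose-1,6-bisphosphatase, had 8.20 and 11.77 log2 units in the aerobic following samples, against 11.81 at 0 h, and 4.33 and 2.00 in the anaerobic following samples, against 9.04 at 0 h (adjusted p = 0.102). PCK1, which makes phosphoenolpyruvate from oxaloacetate, had 9.55 and 12.16 in the aerobic following samples, against 11.77 at 0 h, and 10.61 and 8.06 in the anaerobic following samples, against 12.51 at 0 h (adjusted p = 0.208). In the aerobic series the 4.1 h value of each was low, and the 6.85 h value was back within 0.5 log2 units of 0 h. The list mean showed the same order, with 11.20 and 12.13 in the aerobic following samples against 13.96 at 0 h, and 9.71 and 8.66 in the anaerobic following samples against 12.55 at 0 h. Calls numbered 8 without the aerobic 4.1 h array and 9 without the aerobic 6.85 h array. DLD1, the mitochondrial D-lactate dehydrogenase, was the member called higher, at 0.57 (adjusted p = 0.0485).

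Peroxisomal fatty acid oxidation and biogenesis genes fell in both series. Of 32 tested, 22 were called lower and 1, FAT1, a fatty acid transporter, higher, against 13.8% and 8.34% of all tested genes. Their median change was -0.86 log2 units. POT1 had 7.23 and 8.40 in the aerobic following samples, against 13.96 at 0 h, and 2.86 and 2.32 in the anaerobic following samples, against 11.04 at 0 h (-7.30 ± 0.62, SE, limma adjusted p = 0.00761). POX1, the acyl-CoA oxidase, had 9.99 and 11.02 in the aerobic following samples, against 14.31 at 0 h, and 7.82 and 7.32 in the anaerobic following samples, against 13.38 at 0 h (-4.81 ± 0.53, adjusted p = 0.00973). PEX18, a co-receptor for peroxisomal import, lay under the floor on all 4 following arrays, and its fall has a bound of -3.45. Calls of lower members numbered 8 and 11 without the aerobic 4.1 h and 6.85 h arrays, 13 without the aerobic 0 h array and 14 without the anaerobic 0 h array.

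Hexose transporters did not move together. HXT5, a transporter of slowly growing cells, had 8.16 and 9.25 log2 units in the aerobic following samples, against 14.98 at 0 h, and 6.08 and 3.19 in the anaerobic following samples, against 12.00 at 0 h (-6.82 ± 0.85, SE, limma adjusted p = 0.0109). HXT7, a transporter of high affinity, is uncertain because its probe set also matches another gene, and it had 15.27 and 15.39 in the aerobic following samples, against 15.24 at 0 h, and 15.26 and 15.42 in the anaerobic following samples, against 15.52 at 0 h. HXT3, a low-affinity transporter, had 9.79 and 9.68 in the aerobic following samples, against 11.17 at 0 h, and 10.11 and 9.84 in the anaerobic following samples, against 10.95 at 0 h (-1.20 ± 0.17, adjusted p = 0.0141). HXT5 and HXT3 thus lay below 0 h on all following arrays, and HXT7 stayed within 0.5 log2 units of it.

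HXT1, the low-affinity transporter of high glucose, stood under the floor on all 6 arrays, with 2.92 and 2.78 in the aerobic following samples, against 3.27 at 0 h, and 2.00 and 2.00 in the anaerobic following samples, against 2.02 at 0 h, and was not tested. MIG3, a repressor induced by glucose, fell by 2.68 ± 0.58 log2 units (SE, limma adjusted p = 0.0308), with an aerobic fall that is a bound of -3.16. MIG2, another such repressor, was not called (limma adjusted p = 0.281). It had 4.42 and 3.47 in the aerobic following samples, against 4.40 at 0 h. In the anaerobic following samples it had 5.29 and 4.03, against 6.18 at 0 h. SUC2, invertase, had 14.02 and 13.02 in the aerobic following samples, against 13.86 at 0 h, and 12.31 and 15.09 in the anaerobic following samples, against 14.62 at 0 h, and was not called (adjusted p = 0.572). Of 20 genes for hexose kinases and glucose repression, 6 were called lower and 1 higher, against 13.8% and 8.34% of all tested genes. Among those lower was SIP4, an activator of gluconeogenic genes, at -3.32 ± 0.50 (adjusted p = 0.0148). No gene of this list was called without either aerobic following array.

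Glycolytic genes were not called in the blocked fit by limma, 0 of 14, with a median change of -0.08 log2 units. By sign 13 of 14 were lower in the aerobic series, where 2 were called lower, and 9 of 14 were higher in the anaerobic series, where none was called. At unadjusted p under 0.05 the difference was positive in 6 of 14 and called in none. ENO1, an enolase, named here after its values were seen, had 15.10 and 14.80 in the aerobic following samples, against 15.88 at 0 h (limma adjusted p = 0.0281), and 15.46 and 15.58 in the anaerobic following samples, against 15.69 at 0 h (adjusted p = 0.476). GPM2, a minor phosphoglycerate mutase homologue, had 9.53 and 9.12 in the aerobic following samples, against 12.15 at 0 h, and 10.16 and 11.70 in the anaerobic following samples, against 11.63 at 0 h (adjusted p = 0.094). The fermentation list had 4 of 14 called lower and none higher, against 13.8% and 8.34% of all tested genes. It had no lower call without either aerobic following array or without the aerobic 0 h array. PDC6, a minor pyruvate decarboxylase, had 8.20 and 7.19 in the aerobic following samples, against 13.06 at 0 h, and 8.83 and 7.60 in the anaerobic following samples, against 11.13 at 0 h (-4.14 ± 0.68, SE, limma adjusted p = 0.0177). ALD2 and ALD3, cytosolic aldehyde dehydrogenases, fell by 1.60 ± 0.21 (adjusted p = 0.0118) and 3.12 ± 0.70 (adjusted p = 0.0333), while ADH1 and PDC1, the main fermentative enzymes, changed by -0.01 and -0.05 and were not called.

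Genes under nitrogen catabolite repression, which cells switch off when good nitrogen sources are plentiful, fell in part. Of 39 tested, 12 were called lower and 1, DCG1, higher, against 13.8% and 8.34% of all tested genes. Their median change was -0.75 log2 units. GAP1, the general amino acid permease, had 12.72 and 12.60 in the aerobic following samples, against 14.20 at 0 h, and 12.19 and 12.13 in the anaerobic following samples, against 14.50 at 0 h (-1.94 ± 0.20, SE, limma adjusted p = 0.00928). MEP2, the high-affinity ammonium permease, had 14.62 and 14.76 in the aerobic following samples, against 15.15 at 0 h, and 14.67 and 14.31 in the anaerobic following samples, against 15.05 at 0 h (-0.51 ± 0.12, adjusted p = 0.0389). Both were lower than at 0 h on every following array.

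DAL80, a GATA-family repressor, fell to 3.27 and 3.26 in the aerobic following samples, against 7.85 at 0 h, and to 5.78 and 3.86 in the anaerobic following samples, against 8.54 at 0 h (-4.15 ± 0.62, SE, limma adjusted p = 0.0148). DIP5, a permease for acidic amino acids, fell by 4.89 ± 0.77 (adjusted p = 0.0161). Both genes lay under the floor on the aerobic following arrays, so their aerobic falls are bounds of -3.85 and -5.22. PUT4, the proline permease, had 11.61 and 12.21 in the aerobic following samples, against 14.16 at 0 h, and 8.57 and 4.94 in the anaerobic following samples, against 13.50 at 0 h, and was not called (adjusted p = 0.0657). Without the aerobic 4.1 h array 2 members were called lower, and without either 0 h array 7.

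The genes of translation rose, by small amounts. Among 128 cytosolic ribosomal protein genes, 90 were called higher and none lower, against 8.34% and 13.8% of all tested genes. Their median change was 0.37 log2 units, and 125 were higher by sign in both series. Probe sets of 24 of them are shared with a paralog or another gene, so their values are uncertain. RPL13A, a protein of the large subunit, had 14.55 and 14.47 in the aerobic following samples, against 13.67 at 0 h, and 14.63 and 14.48 in the anaerobic following samples, against 13.47 at 0 h (0.96 ± 0.10, SE, limma adjusted p = 0.00931). RPS26B, of the small subunit, had 15.37 and 15.13 in the aerobic following samples, against 14.47 at 0 h, and 15.07 and 14.93 in the anaerobic following samples, against 14.07 at 0 h (0.85 ± 0.10, adjusted p = 0.0103). The direction held under all 3 scalings, where 95, 97 and 116 genes were called higher and none lower. The number of calls did not hold elsewhere, with 2 without the aerobic 4.1 h array, 7 without the aerobic 6.85 h array, 36 without the aerobic 0 h array, 51 without the anaerobic 0 h array and 0 when all 16 arrays entered the fit.

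Aminoacyl-tRNA synthetases, which charge tRNAs with amino acids, had 14 of 19 called higher and none lower, against 8.34% and 13.8% of all tested genes. Their median change was 0.45. WRS1, the tryptophan enzyme, had 13.20 and 13.10 log2 units in the aerobic following samples, against 12.06 at 0 h, and changed by 0.82 in the anaerobic series (common change 0.95 ± 0.12, SE, limma adjusted p = 0.0118). Of 33 translation factors, 13 were called higher and none lower, among them GCN3, a subunit of the guanine nucleotide exchange factor of initiation, at 0.76 ± 0.14 (adjusted p = 0.0214). No synthetase and no translation factor was called without either of the aerobic following arrays. Of the translation factors, 2 were called without the aerobic 0 h array and 2 with all 16 arrays.

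Nucleolar ribosome biogenesis genes had 13 of 100 called higher and none lower, near the 8.34% of all genes, although 94 were higher by sign in both series and their median was 0.53. UTP9, a subunit of the complex that processes the small-subunit RNA, had 12.48 and 12.64 log2 units in the aerobic following samples, against 11.49 at 0 h, and 12.45 and 11.82 in the anaerobic following samples, against 11.22 at 0 h (0.99 ± 0.20, SE, limma adjusted p = 0.0283). The list mean was 12.13 and 12.20 in the aerobic following samples, against 11.74 at 0 h, and 12.26 and 11.60 in the anaerobic following samples, against 11.36 at 0 h, so the anaerobic arrays differed most from each other. RNA polymerase I and III genes had 7 of 34 called higher and none lower. RPA49, a polymerase I subunit, rose by 0.95 ± 0.18 (adjusted p = 0.0242). Neither list had a call without either aerobic following array or with all 16 arrays, and without the anaerobic 10.38 h array 42 biogenesis genes and 11 polymerase genes were called higher.

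Among purine and one-carbon genes 7 of 19 were called higher and none lower, against 8.34% and 13.8% of all tested genes. Their median change was 0.41. IMD4, an IMP dehydrogenase of guanine nucleotide synthesis, had 12.08 and 12.39 log2 units in the aerobic following samples, against 10.67 at 0 h, and 12.73 and 12.42 in the anaerobic following samples, against 10.83 at 0 h (1.65 ± 0.16, SE, limma adjusted p = 0.00928). Amino acid biosynthesis genes under Gcn4 were mixed, with 10 of 57 called higher and 3 lower, against the same 8.34% and 13.8%. SER2, the last enzyme of serine synthesis, rose by 1.18 ± 0.15 (adjusted p = 0.0118), and CPA1, of arginine synthesis, fell by 1.00 ± 0.15 (adjusted p = 0.0143). Without either aerobic following array 1 purine gene and no amino acid gene was called.

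**Figure D3:**
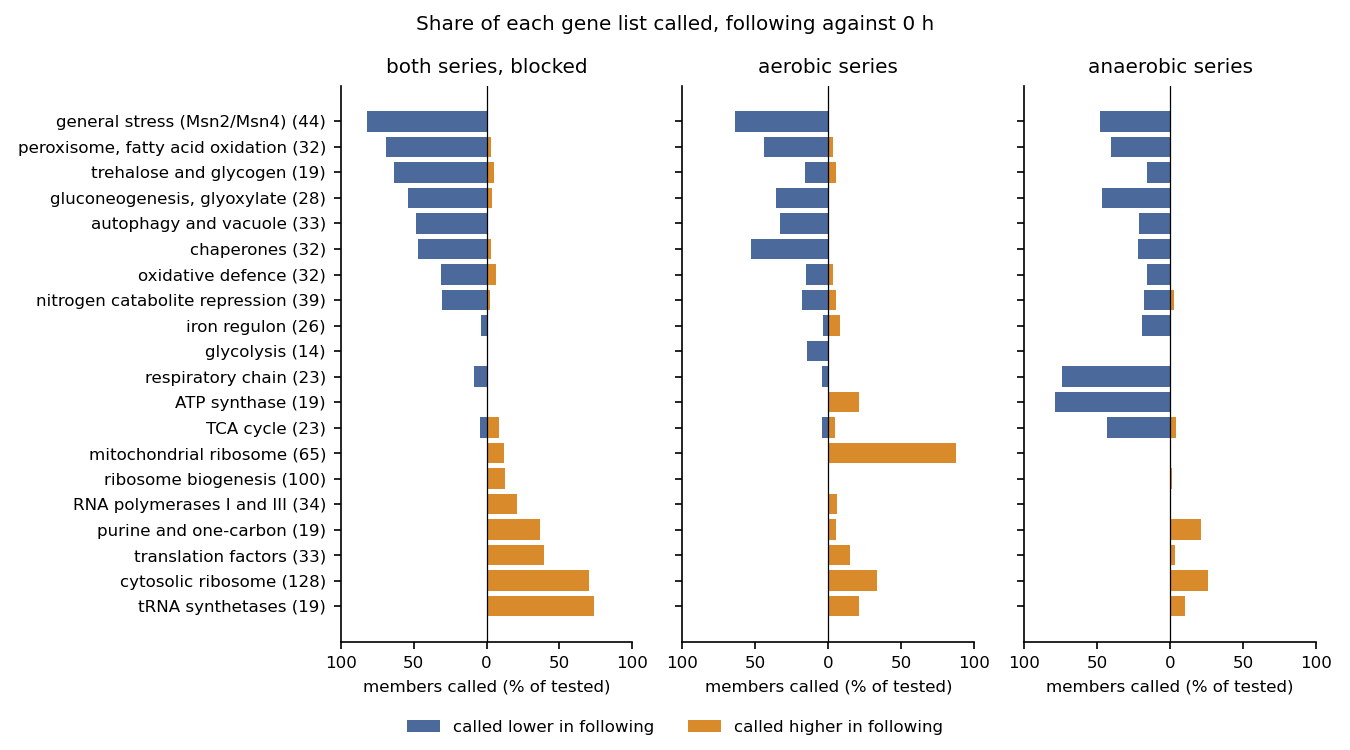
Members called lower (left of 0) or higher (right of 0) in the following arrays as a percentage of tested members of 20 gene lists, in the blocked fit and in each series fitted as its own groups, with the number tested in brackets. Stress and peroxisome lists extend left in all panels, the respiratory chain and ATP synthase extend left in the anaerobic panel, and the mitochondrial ribosome extends right in the aerobic panel.

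Fitted by series, limma called 364 genes higher (7.01%) and 417 lower (8.04%) in the aerobic following samples, and 104 higher (2.00%) and 308 lower (5.94%) in the anaerobic following samples. Of these, 68 were higher and 157 lower in both, and 6 were called in opposite directions. The difference of the changes, anaerobic minus aerobic, was called for no gene (0%), with a lowest adjusted p of 0.0749 and 750 genes (14.5%) at an unadjusted p under 0.05. By this test no gene was shown to move in 1 series only, and what follows gives the values of each series side by side. Counts by series depended on single arrays. Without the anaerobic 4.35 h or 10.38 h array, when the aerobic following pair alone gave the spread, the aerobic calls were 2251 and 2248, the anaerobic calls 1383 and 1832 and the difference calls 519 and 590. Without the aerobic 4.1 h or 6.85 h array they were 21 and 24, 0 and 0, and 0 and 0.

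Without a test, 242 genes (4.66%) were lower and 223 (4.30%) higher by at least 1 log2 unit in the aerobic series only. In the anaerobic series only, 240 (4.63%) were lower and 69 (1.33%) higher, and 12 (0.231%) met the rule in opposite directions. Among these were 17 of 23 respiratory chain genes, lower in the anaerobic series only, and 52 of 65 mitochondrial ribosomal genes, higher in the aerobic series only.

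Respiratory chain genes were lower in the anaerobic following samples. Fitted by series, 17 of 23 were called lower in the anaerobic series, and 1 lower and none higher in the aerobic series, with medians of -1.51 and 0.29 log2 units. The list mean was 12.40 and 12.18 in the anaerobic following samples, against 13.93 at 0 h, and 13.63 and 13.67 in the aerobic following samples, against 13.79 at 0 h. NDI1, the internal NADH dehydrogenase, had 11.55 and 11.51 in the anaerobic following samples, against 13.74 at 0 h, and 13.91 and 14.22 in the aerobic following samples, against 13.77 at 0 h (difference -2.51, limma adjusted p = 0.0903). QCR10, a subunit of complex III, had 12.34 and 12.16 in the anaerobic following samples, against 14.11 at 0 h, and 14.34 and 14.45 in the aerobic following samples, against 14.08 at 0 h (difference -2.18, adjusted p = 0.0903). In both genes the anaerobic values were low and the aerobic ones slightly above 0 h, and the difference was not called.

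CYC1, the main cytochrome c, changed by -1.60 log2 units in the anaerobic series (limma adjusted p = 0.144) and had 15.32 and 15.38 in the aerobic following samples, against 14.68 at 0 h (aerobic adjusted p = 0.438). NDE2, an external NADH dehydrogenase, departed from the list, with 6.56 and 6.52 in the anaerobic following samples, against 10.99 at 0 h, and 6.11 and 5.38 in the aerobic following samples, against 13.41 at 0 h (common change -6.06 ± 0.73, SE, limma adjusted p = 0.0104). At unadjusted p under 0.05 the difference was negative in 20 of 23 members and positive in 1.

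ATP synthase genes had 15 of 19 called lower in the anaerobic following samples and none higher, and none lower and 4 higher in the aerobic following samples. Their mean was 13.07 and 13.09 log2 units in the anaerobic following samples, against 13.90 at 0 h, and 14.28 and 14.39 in the aerobic following samples, against 13.91 at 0 h. TIM11, subunit e of the enzyme, had 13.46 and 13.47 in the anaerobic following samples, against 14.39 at 0 h, and 14.77 and 14.90 in the aerobic following samples, against 14.22 at 0 h (difference -1.55, limma adjusted p = 0.0903). ATP11 and ATP12, assembly factors, were called higher in the aerobic series, at 1.20 and 1.22 (adjusted p = 0.0255 and 0.0204), and changed by 0.18 and 0.11 in the anaerobic series.

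Of 23 tricarboxylic acid cycle genes, 10 were called lower and 1 higher in the anaerobic following samples, against 5.94% and 2.00% of all tested genes. In the aerobic following samples 1 was called lower and 1 higher, against 8.04% and 7.01%. SDH2, the iron-sulfur subunit of succinate dehydrogenase, had 13.02 and 12.98 log2 units in the anaerobic following samples, against 15.03 at 0 h, and 14.74 and 14.92 in the aerobic following samples, against 15.09 at 0 h (difference -1.78, limma adjusted p = 0.0903). IDH1 and IDH2, the subunits of NAD-linked isocitrate dehydrogenase, went the other way and were called higher over both series, at 0.98 (adjusted p = 0.0154) and 0.94 (adjusted p = 0.0119). SOD2, the mitochondrial superoxide dismutase, had 11.05 and 11.29 in the anaerobic following samples, against 13.89 at 0 h, and 14.10 and 14.38 in the aerobic following samples, against 14.30 at 0 h (difference -2.65, adjusted p = 0.0903).

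Mitochondrial ribosomal protein genes rose in the aerobic following samples. Of 65, 57 were called higher in the aerobic series and none in the anaerobic series, with medians of 1.33 and 0.18 log2 units, and in the blocked fit 8 were called. Their mean was 13.23 and 13.10 in the aerobic following samples, against 11.88 at 0 h, and 11.75 and 12.05 in the anaerobic following samples, against 11.72 at 0 h. MRPL20, of the large subunit, had 13.09 and 13.11 in the aerobic following samples, against 10.93 at 0 h, and 11.44 and 11.88 in the anaerobic following samples, against 10.93 at 0 h (aerobic change 2.16, limma adjusted p = 0.0159, difference -1.43, adjusted p = 0.176). At unadjusted p under 0.05 the difference was negative in 58 of 65, and it was called in none.

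**Figure D4:**
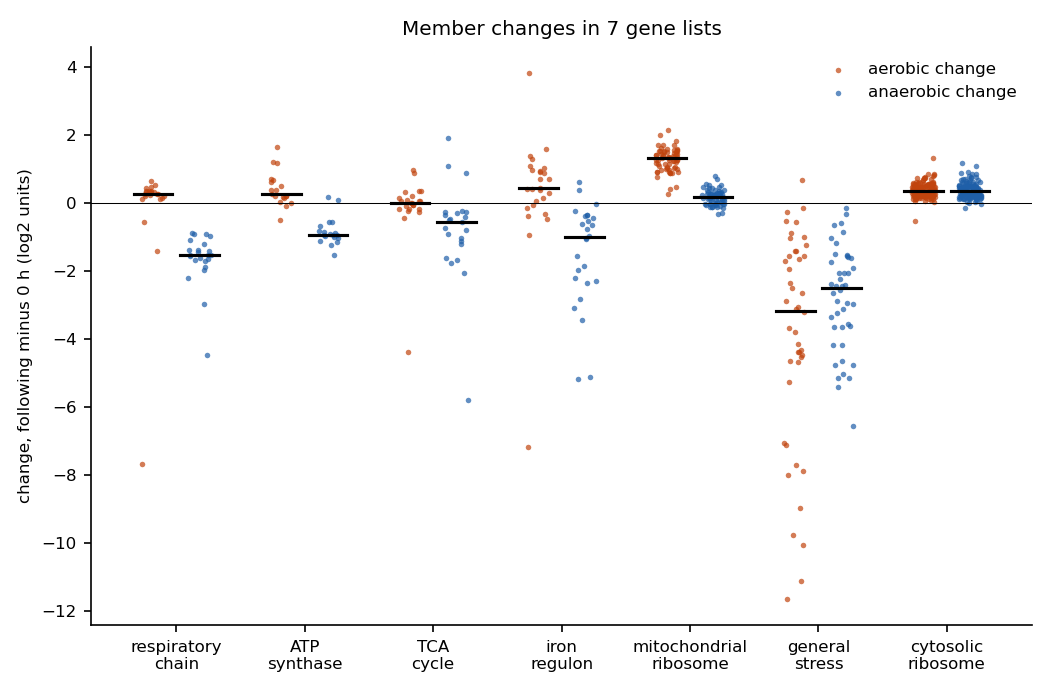
Change of each tested member, in log2 units, of 7 gene lists in the aerobic (left) and anaerobic (right) series, with the median as a bar. The medians lie at 0.29 and -1.51 for the respiratory chain and at 1.33 and 0.18 for the mitochondrial ribosome, against -3.16 and -2.50 for general stress targets.

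Iron uptake and mobilisation genes, controlled by Aft1 and Aft2, split between the series by sign. Of 26 tested, 18 were lower by sign in the anaerobic and higher in the aerobic series. In the anaerobic following samples 5 were called lower and none higher, against 5.94% and 2.00% of all tested genes. In the aerobic following samples 1 was called lower and 2 higher, against 8.04% and 7.01%. The aerobic calls alone therefore do not show a rise of the list. FIT2, a cell wall protein that retains siderophores, had 9.32 and 9.75 log2 units in the anaerobic following samples, against 12.62 at 0 h, and 14.11 and 14.35 in the aerobic following samples, against 13.33 at 0 h (difference -3.98, limma adjusted p = 0.0903). TIS11, which speeds decay of mRNAs when iron is scarce and is named here after its values were seen, had 3.19 and 3.13 in the anaerobic following samples, against 8.34 at 0 h, and 11.96 and 10.82 in the aerobic following samples, against 10.36 at 0 h. Its anaerobic following values were under the floor, so the anaerobic fall is a bound of -4.34, and the difference was not called (limma adjusted p = 0.0912). FET3, the multicopper oxidase of iron uptake, chosen in the same way, had 10.89 and 9.17 in the anaerobic following samples, against 12.39 at 0 h, and 14.89 and 14.55 in the aerobic following samples, against 13.12 at 0 h (difference -3.95, adjusted p = 0.201).

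FIT2, TIS11 and FET3 each lay below 0 h on both anaerobic following arrays and above it on both aerobic ones. FRE5, a putative ferric reductase, rose by 3.83 log2 units in the aerobic series (limma adjusted p = 0.0143) and stayed at 2.00 to 2.02, under the floor, on the 3 anaerobic arrays. FRE4, another reductase, went against the list and was called lower over both series, at -4.99 ± 1.11 (SE, adjusted p = 0.0325), with an aerobic fall that is a bound of -5.45. The 12 genes that met the rule in opposite directions included 4 members of this list, TIS11, FET3, FRE1 and FRE3, together with AIM33, FMO1, MIX14 and PHM6, all lower in the anaerobic and higher in the aerobic following samples. GPD2, AQR1, BIO5 and YOR012W ran the other way. These names come from the rule after its values were seen.

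GPD2, a glycerol-3-phosphate dehydrogenase that lets cells without oxygen dispose of NADH, had 10.81 and 11.01 log2 units in the anaerobic following samples, against 9.73 at 0 h, and 9.23 and 9.12 in the aerobic following samples, against 10.76 at 0 h (difference 2.77, limma adjusted p = 0.0903). Of the 10 genes with the smallest p for a positive difference, INA1 also ran in opposite directions, with 13.88 and 13.79 in the anaerobic following samples, against 12.63 at 0 h, and 8.46 and 8.35 in the aerobic following samples, against 9.36 at 0 h. FDH1, formate dehydrogenase, had 2.00 and 2.00 in the anaerobic following samples, against 4.15 at 0 h, and 3.46 and 3.41 in the aerobic following samples, against 14.93 at 0 h. PMA2, a minor plasma membrane proton pump, had 8.70 and 7.95 in the anaerobic following samples, against 9.69 at 0 h, and 7.41 and 7.49 in the aerobic following samples, against 14.02 at 0 h (difference 5.20, adjusted p = 0.0903). All following values of FDH1 were under the floor, so its changes are bounds of -0.15 in the anaerobic and -10.93 in the aerobic series. The same holds for SPS100, with bounds of -0.41 and -8.16, and for SPG1, with bounds of -2.33 and -9.56. The remaining RTC3, SSU1, RTN2 and SHH4 were lower in both series, with differences from 2.14 to 3.74. None of the 10 was called, with limma adjusted p from 0.0749 to 0.0912.

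For a negative difference the smallest p belonged to RIM4, an RNA-binding regulator of meiosis, which had 7.72 and 7.76 log2 units in the anaerobic following samples, against 13.23 at 0 h, and 11.71 and 12.02 in the aerobic following samples, against 12.98 at 0 h (difference -4.37, limma adjusted p = 0.0749). PUT2, of proline degradation, had 11.65 and 11.67 in the anaerobic following samples, against 13.91 at 0 h, and 13.56 and 13.49 in the aerobic following samples, against 13.15 at 0 h (difference -2.63, adjusted p = 0.0749). COX13, a subunit of cytochrome c oxidase, and AIM33 had differences of -1.56 and -3.38 (both adjusted p = 0.0903). None of these passed 0.05.

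Single genes stood out by size in 1 series, named here after their values were seen. ARO10, a decarboxylase of aromatic amino acid breakdown, had 5.43 and 3.84 log2 units in the aerobic following samples, against 12.11 at 0 h, and was under the floor on all 3 anaerobic arrays. THI4, of thiamine synthesis, had 7.62 and 6.77 in the aerobic following samples, against 11.59 at 0 h, and 7.58 and 7.41 in the anaerobic following samples, against 8.33 at 0 h. SFC1, the mitochondrial succinate-fumarate carrier, had 4.59 and 2.00 in the anaerobic following samples, against 10.94 at 0 h, and 13.43 and 14.04 in the aerobic following samples, against 14.18 at 0 h. The anaerobic SFC1 values were far below 0 h, and the aerobic ones stayed within 1 log2 unit of it. HXT4, a hexose transporter, had 14.12 and 12.28 in the anaerobic following samples, against 9.56 at 0 h, and 11.95 and 10.84 in the aerobic following samples, against 11.80 at 0 h (anaerobic adjusted p = 0.0752, limma).

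Hypoxic genes, which yeast induces when heme and sterols run short of oxygen, were measured as a check on the anaerobic label. The list did not move as one. By sign, 10 of the 20 tested were higher and 10 lower in the anaerobic following samples. AAC3, the hypoxic ADP/ATP carrier, had 10.02 and 11.79 log2 units in the anaerobic following samples, against 6.24 at 0 h, and 4.43 and 4.05 in the aerobic following samples, against 3.21 at 0 h (anaerobic change 4.67, limma adjusted p = 0.0406). ANB1, the hypoxic form of translation factor eIF5A, had 9.96 and 13.49 in the anaerobic following samples, against 7.70 at 0 h, and was under the floor on the 3 aerobic arrays. Both genes were thus above the floor on the anaerobic 0 h array and higher again on the following ones. On the later anaerobic arrays AAC3 had 11.84 to 12.40 and ANB1 13.94 to 14.68, so the 0 h values were far below the later ones. Time and feed glucose rose together, so an effect of time without oxygen was not tested apart from the feed. This also holds for the anaerobic falls of the respiratory chain, ATP synthase, tricarboxylic acid cycle and iron genes. Of 20 genes on the hypoxic list, 4 were called lower and none higher over both series, against 13.8% and 8.34% of all tested genes. In the anaerobic series 1, AAC3, was called higher and 1, CYC7, lower. CYC7 had 8.07 and 8.51 in the anaerobic following samples, against 11.26 at 0 h (anaerobic change -2.97, limma adjusted p = 0.022). It had 8.44 and 8.86 in the aerobic following samples, against 10.04 at 0 h. The anaerobic cell wall mannoproteins had a mean of 10.67 and 11.35 in the anaerobic following samples, against 11.41 at 0 h, and 7.37 and 7.30 in the aerobic following samples, against 8.09 at 0 h, with 9 of the 19 probe sets shared. The mannoprotein mean was 12.46 to 14.76 on the later anaerobic arrays.

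The mating-type lists served as markers of the cell type. STE2, the receptor made by MATa cells, had 14.14 and 14.40 log2 units in the aerobic following samples, against 12.47 at 0 h, and 14.03 and 14.12 in the anaerobic following samples, against 13.32 at 0 h (1.28 ± 0.25, SE, limma adjusted p = 0.0244). ASG7, another MATa gene, fell by 2.12 ± 0.40 (adjusted p = 0.0239), and the other 5 MATa genes were not called over both series. In the aerobic series alone 4 of the 7 were called higher and 1 lower, and in the anaerobic series none higher and 1 lower. By sign 5 of the 7 were higher in the aerobic series and 6 of the 7 lower in the anaerobic series. STE3, the receptor made by MATalpha cells, had 7.09 and 5.70 in the aerobic following samples, against 8.85 at 0 h, and 6.45 and 7.15 in the anaerobic following samples, against 8.41 at 0 h (-2.03 ± 0.49, adjusted p = 0.0387).

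The counts of the remaining lists stand beside 13.8% of all tested genes called lower and 8.34% called higher. Of 27 ergosterol genes 4 were called lower and none higher, of 20 copper and zinc genes 4 lower and 1 higher, of 15 phosphate genes 3 lower and none higher, of 11 genes for maltose, galactose and sucrose use 3 lower and none higher, and of 27 sulfur and methionine genes 2 each way. Without either aerobic following array no ergosterol, phosphate or sugar gene was called, and 2 copper and zinc genes were called lower. CTR3, a copper transporter, had 11.90 and 11.90 log2 units in the aerobic following samples, against 13.79 at 0 h, and 7.24 and 7.13 in the anaerobic following samples, against 9.98 at 0 h (-2.34 ± 0.23, SE, limma adjusted p = 0.00899). CRS5, a copper-binding metallothionein, fell by 1.82 ± 0.14 (adjusted p = 0.00761). PHO84, the high-affinity phosphate transporter, had 8.19 and 7.37 in the aerobic following samples, against 9.57 at 0 h, and 4.14 and 3.12 in the anaerobic following samples, against 3.95 at 0 h, and was not called. Cell cycle and DNA replication genes had 0 of 46 called by limma in the blocked fit.

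The 10 later arrays show where levels went afterwards. In the aerobic series the general stress mean was 9.51 and 9.50 log2 units at 4.1 h and 6.85 h, 13.74 at 9.6 h and between 11.94 and 12.70 after that, set beside 13.44 at 0 h. In the anaerobic series it was 8.85 and 8.85 at 4.35 h and 10.38 h and then between 9.32 and 10.72, below the 11.62 of 0 h on each array. The later aerobic stress means thus lay above both following arrays and, apart from 9.6 h, below 0 h, and the later anaerobic means also lay between the following arrays and 0 h. The gluconeogenesis mean ended at 9.81 in the aerobic series and 8.54 in the anaerobic series, below the following arrays of both.

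FLO11 had 8.98 to 10.67 log2 units on the 5 later aerobic arrays and 13.62 to 15.04 on the 5 later anaerobic arrays, each set above its 0 h value. YKL107W stood at 6.37 to 10.71 on the later aerobic arrays and at 2.28 to 3.08, under the floor, on the later anaerobic arrays. The respiratory chain mean stayed between 11.37 and 12.38 on the later anaerobic arrays, below the 0 h array throughout. The mitochondrial ribosomal mean lay between 11.19 and 11.73 on the later aerobic arrays, below the 11.88 of 0 h, and of the 8 aerobic arrays the following ones held the highest means.

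**Figure D5:**
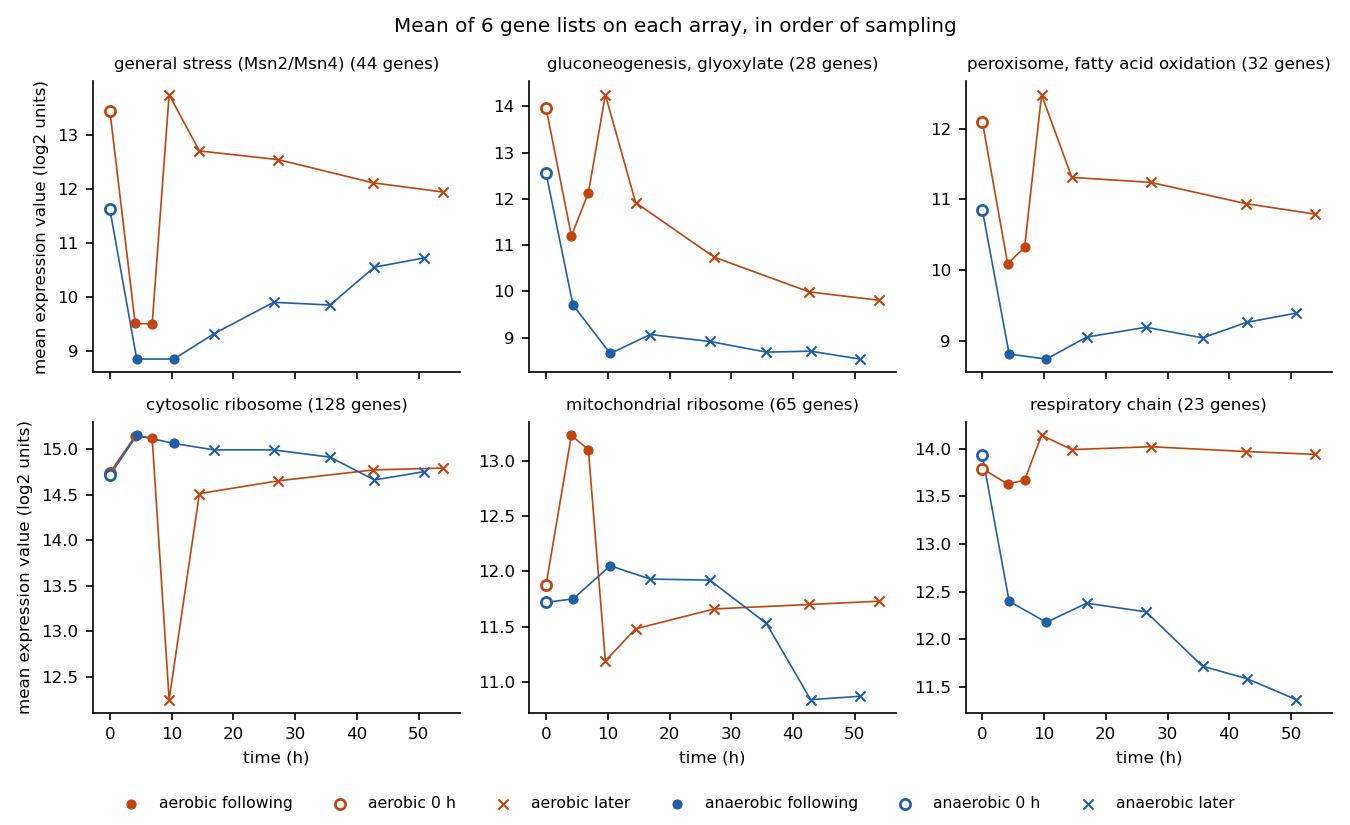
Mean log2 expression value of 6 gene lists on all 16 arrays against time in hours, with open circles for 0 h, filled circles for the following arrays and crosses for later arrays. General stress, gluconeogenesis and peroxisome means drop after 0 h in both series, and the aerobic 9.6 h array stands apart with general stress at 13.74 and the cytosolic ribosome at 12.25.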

How the data were processed

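Biotin-labelled cRNA from 16 samples was hybridised to Affymetrix arrays. The values are log2 expression values as deposited by the authors, made with GCRMA per the submitters' processing notes. No source used here gives the software version or says if all 16 arrays were normalized jointly. The log base follows from GCRMA and the size of the values, and no label states it. Probe sets were named from GEO's platform annotation, with symbols updated through RefSeq. Of 5716 probe sets, 5498 had 1 symbol and 218 none. Of several probe sets for a gene the brightest was kept, giving 5449 genes, of which 5189 passed the filter of at least 4 log2 units on at least 2 of 6 arrays.

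R 4.3.3 and limma 3.58.1 (lmFit, eBayes with an intensity trend) fitted the 6 arrays with oxygen as a block (3 residual degrees of freedom), and 4 group means for the changes by series and their difference (2 residual degrees of freedom). P-values were adjusted by Benjamini-Hochberg over all 5189 genes. The fits were also run on simulated data with independent noise and the same spread on every array. That run could not check the assumed spread of the 0 h arrays. No set test was run: lists are described by counts and medians. The members and gene lists were chosen with earlier results of these data known.

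Named genes are the 10 largest called changes each way, the 10 smallest p each way for the difference (none was called), up to 4 members of a list by size, and 16 marker genes; others are marked in the text. Members named as an exception to their list, or to show members that did not change, were chosen after their values were seen. A change where all values of the lower side lie under 4 log2 units is given as a bound against that floor. No sequence was used.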

Additional observations from a re-analysis of the deposited data

Results flagged for a closer look

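Lists and genes below were singled out because 1 array lay far from the other later arrays of its series, or because the changes of the 2 series ran in opposite directions on every array. Of 72 groups of later arrays screened, 11 held such an array. Chance alone gives about 1 in 20 of independent groups. These groups share the same arrays, and all flags but that of the phosphate list fell on the aerobic 9.6 h array. The count can therefore not be set against that rate. On the aerobic 9.6 h array, a later array outside the comparison, the mean was 6.33 log2 units for ribosome biogenesis, 9.16 for RNA polymerases I and III, 12.36 for translation factors, 12.73 for tRNA synthetases, 13.22 for amino acid biosynthesis, 12.97 for sulfur and methionine genes, 12.62 for purine and one-carbon genes, 12.25 for cytosolic ribosomal proteins, 13.52 for trehalose and glycogen and 12.41 for autophagy. The phosphate list had a mean of 10.33 on the aerobic 14.5 h array.

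The change of a list mean, anaerobic minus aerobic, was -1.78 for iron genes, -1.27 for MATa genes, -1.25 for ATP synthase, -0.44 for cell cycle genes, -0.43 for sulfur and methionine genes, 0.32 for amino acid biosynthesis and 0.87 for hypoxic genes. Each list mean moved one way on both following arrays of one series and the other way in the other series, and these differences of means were not tested. Among single genes the same pattern was seen in AIM33 (-3.38), COX13 (-1.56), FIT2 (-3.98), NDI1 (-2.51), PUT2 (-2.63), QCR10 (-2.18) and TIM11 (-1.55), lower in the anaerobic following samples and higher in the aerobic ones, and in GPD2 (2.77) and INA1 (2.16), which ran the other way. Limma's test of the difference gave these 9 genes adjusted p between 0.0749 and 0.0912, so none was called.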

How the results depend on the processing

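With 1 array at 0 h in each series, the calls rest on 2 or 3 residual degrees of freedom, and values near 4 log2 units are close to background. Of the 1148 genes called, 1137 were still tested under the filter at 6 log2 units and kept their sign. Under quantile normalization of the 6 arrays and within each series 1137 and 1138 kept it, and under the other settings all 1148 did. In most of those other settings the sign could not change. Either the change itself stayed the same, or arrays were dropped while every following array already lay on the same side of 0 h. The kept signs there are no measure of stability. Calls of the common change ranged from 88 to 1147 when any one array was left out, those higher from 14 to 442 and those lower from 74 to 705. Leaving out one array gave 21 to 2251 aerobic calls, 0 to 1832 anaerobic calls and 0 to 590 calls of the difference. Quantile normalization of the 6 arrays gave 908 genes higher, 1186 aerobic calls and 154 genes higher by 1 log2 unit in both series, and quantile normalization within each series 884 and 153. Centring on medians gave 719 genes higher. Without a filter the difference was called for 60 genes. Without an intensity trend 287 genes were higher, the anaerobic series had 187 calls and the difference was called for 2. With all 16 arrays 256 genes were higher and 455 were called in the aerobic series. Without the oxygen block 65 genes were called (27 higher, 38 lower), and a slope on log2 feed glucose gave 232 (54 higher, 178 lower). With only the first or only the second following array of each series, 0 genes were called. GIT1, called at -1.24 (limma adjusted p = 0.031), turned to 0.18 and 0.17 under the quantile settings and was not called there. The causes were not tested. Of the values for 189 genes named for the common change, 2916 kept their status, which includes genes that were not called and stayed so. Another 715 lost a call, 140 gained one and 2 reversed. No paired analysis was possible because the arrays of a series are serial samples with no shared replicate number between 0 h and following.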
